A study of Homo sapiens with 8 samples.

Results

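The MHC class I antigen presentation genes HLA-B, HLA-C, HLA-E, HLA-F, HLA-G, B2M, TAP1, TAP2 and TAPBP were followed in CAOV-3, OVCAR-3, SKOV-3 and DOV-13, which are 4 established lines of human ovarian cancer. Each line gave 1 array of untreated cells and 1 array of cells given pI:pC (polyriboinosinic:polyribocytidylic acid, a synthetic double-stranded RNA that stands in for viral RNA), so that the untreated and the pI:pC group held 4 Affymetrix arrays each. All cells grew in serum-containing medium, and the labels give no other agent. Several pI:pC concentrations were used, and neither the dose nor the time of an array is given, so that dose, time and cell line cannot be told apart. The members were all probe sets (groups of short array probes read as a single value) whose gene symbol in the platform annotation is one of these 9 genes. They came to 25 of the 22277 probe sets on the array, 17 of them for the 5 HLA genes, and 0 probe sets naming several genes included a member.

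MHC class I molecules show peptides from inside the cell to CD8 T cells. A heavy chain, encoded by an HLA gene, pairs with the light chain beta-2-microglobulin (B2M). The TAP1-TAP2 transporter moves peptides from the cytosol into the endoplasmic reticulum, and tapasin (TAPBP) holds empty heavy chains next to that transporter while they are loaded. Nearly all nucleated cells make these molecules, and interferons are known to raise the transcription of most of the set. Control elements known in class I promoters include interferon-stimulated response elements (ISRE), NF-kB sites and an upstream module with the X2 and Y boxes. Double-stranded RNA is known to induce type I interferon in cells that sense it.

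Higher values of the class I genes after pI:pC were found mostly in CAOV-3 and, to a lesser size, in OVCAR-3. With each gene taken by its brightest probe set, the median difference of the 9 members, treated minus untreated on the log2 scale, came to 0.88 in CAOV-3, 0.38 in OVCAR-3, 0.12 in SKOV-3 and 0.14 in DOV-13. The medians over all 11963 genes in the same order were -0.018, -0.010, 0.022 and 0.034. All 9 members were higher with pI:pC in CAOV-3 and in OVCAR-3, 5 of 9 in SKOV-3 and 8 of 9 in DOV-13. Of all 11963 genes 5501 were higher in CAOV-3, 5538 in OVCAR-3, 6687 in SKOV-3 and 7211 in DOV-13, so that the SKOV-3 count of the members is near that background. The SKOV-3 median of 0.12 was 0.035 with the mean of a gene's probe sets and 0.069 with the most variable one. TAP1 in CAOV-3 showed the largest difference of all members, 1.63 or 3.10-fold.

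No member passed the test over the 4 lines. By limma with the cell line as a block and Benjamini-Hochberg adjustment over all 22215 probe sets that are no array controls, 0 of the 25 member probe sets passed 0.05 (smallest adjusted p = 0.996), as did 0% of all probe sets. Before adjustment 19 of the 25 had a limma p under 0.05 and a higher treated value, against 2.35% of all probe sets (521 of 22215). Counted in either direction, 19 member probe sets and 855 of all 22215 had an unadjusted limma p under 0.05. The member count was 20 without SKOV-3 (1504 of all 22215), 17 without DOV-13 (756), 9 without CAOV-3 (755) and 11 without OVCAR-3 (636). With the cell line left out of the model it was 0 (19 of all 22215). With 4 pairs the exact two-sided sign-flip test of a single probe set cannot give a p under 0.125. The words higher and lower below therefore describe the array pairs of a line, which have no replicate.

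The regulatory sequence next to the members is shown for 8 of the 9 genes, because the same few control elements are known for the class I genes. Whether these elements bear on the differences after pI:pC was not tested. The windows are RefSeq promoter sequence on GRCh38.p14, matched by symbol, 150 bases each, read 5′ to 3′ on the strand of the gene. Capitals mark matches, on either strand, to the ISRE core GAAANNGAA, the same core with the spacing mirrored (GAANNGAAA), an NF-kB motif GGGNNTTCC, the X2 box core TGACG and the Y box CCAAT. The mirrored core was added after the sequences had been seen. HLA-B, HLA-C, HLA-F and HLA-G are shown from base -185 to base -36, counted from the start site as 0, and the other genes from -140 to 9. HLA-G and TAP1 have several RefSeq starts, and the entry with the most matches is shown.
HLA-B, chr6:31357215-31357364, minus strand: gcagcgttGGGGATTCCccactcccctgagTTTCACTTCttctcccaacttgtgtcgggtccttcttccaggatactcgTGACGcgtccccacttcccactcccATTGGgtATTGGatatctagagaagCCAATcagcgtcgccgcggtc
HLA-C, chr6:31272128-31272277, minus strand: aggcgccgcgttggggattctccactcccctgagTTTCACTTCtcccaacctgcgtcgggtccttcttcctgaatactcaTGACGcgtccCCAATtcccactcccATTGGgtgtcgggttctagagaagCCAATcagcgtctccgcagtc
HLA-F, chr6:29723249-29723398, plus strand: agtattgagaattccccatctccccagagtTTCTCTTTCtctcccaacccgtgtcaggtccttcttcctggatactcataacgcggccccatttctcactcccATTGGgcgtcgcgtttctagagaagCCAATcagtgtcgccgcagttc
HLA-G, chr6:29827640-29827789, plus strand: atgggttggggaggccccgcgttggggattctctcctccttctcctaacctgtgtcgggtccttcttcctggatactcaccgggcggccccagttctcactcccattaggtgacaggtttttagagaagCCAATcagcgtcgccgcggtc
B2M, chr15:44711377-44711526, plus strand: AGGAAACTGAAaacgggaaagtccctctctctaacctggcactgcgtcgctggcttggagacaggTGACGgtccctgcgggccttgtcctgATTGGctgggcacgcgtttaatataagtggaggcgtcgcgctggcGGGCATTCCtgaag
TAP1, chr6:32853695-32853844, minus strand: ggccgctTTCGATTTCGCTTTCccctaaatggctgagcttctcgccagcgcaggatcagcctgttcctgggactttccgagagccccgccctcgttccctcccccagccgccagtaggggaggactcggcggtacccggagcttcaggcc
TAP2, chr6:32838730-32838879, minus strand: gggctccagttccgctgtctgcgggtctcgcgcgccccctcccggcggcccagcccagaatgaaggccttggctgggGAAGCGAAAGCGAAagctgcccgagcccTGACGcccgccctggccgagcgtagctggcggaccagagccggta
TAPBP, chr6:33314069-33314218, minus strand: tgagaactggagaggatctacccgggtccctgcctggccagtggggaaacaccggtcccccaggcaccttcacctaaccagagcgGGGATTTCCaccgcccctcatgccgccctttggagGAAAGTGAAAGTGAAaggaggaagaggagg

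The windows shared some motifs and differed in others. In HLA-B the mirrored ISRE core lay at -155 to -147 and in HLA-C at -151 to -143, while HLA-F held the ISRE core itself at -155 to -147. HLA-B and HLA-C carried the X2 box from -106 and from -105, as did B2M (-75 to -71) and TAP2 (-35 to -31), and HLA-B alone among the heavy chains shown held the NF-kB motif (-177 to -169). All 4 printed heavy chain windows had a Y box at nearly the same place, from -57 in HLA-F and from -56 in the other 3, and B2M held one at -49 to -45. A further Y box of HLA-C (from -192) and one of TAP1 (from -249) lie outside the windows. In HLA-G that Y box was the only match, and its other 2 entries held none. B2M, the printed TAP1 entry and TAPBP each held a pair of ISRE cores that overlapped by 3 bases, and the first of the B2M pair begins 4 bases before the printed window. In TAP2 an ISRE core (-58 to -50) overlapped a mirrored one (-63 to -55). TAPBP also held the NF-kB motif at -55 to -47, and in B2M it spanned the start site (-4 to 4).

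Over all 35116 RefSeq promoter entries of 300 bases, 8.11% held the ISRE core, 7.66% the mirrored core, 6.58% the NF-kB motif, 24.6% the X2 core and 34.6% the Y box. The X2 and Y motifs are short and common, so that a single match says little. A match describes letters in a window, and no binding was measured here. The first RefSeq entry of TAP1 held none of the motifs.

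**Figure D1:**
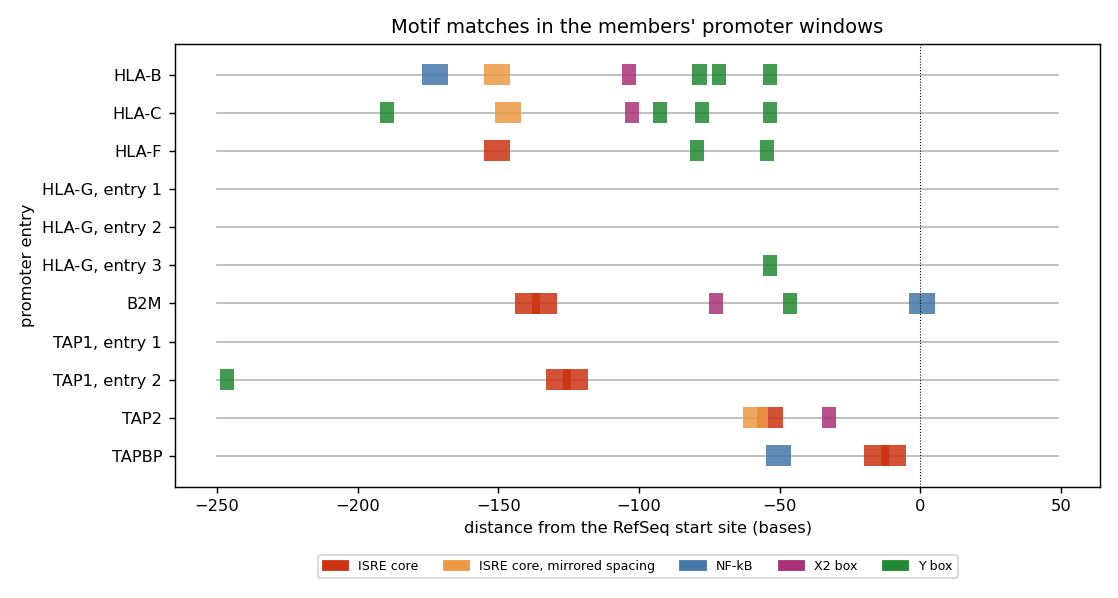
Motif matches in the 11 RefSeq promoter entries of 8 members, drawn by distance in bases from the start site (dotted line), with grey lines for the 300 bases searched. The ISRE cores of B2M, TAP1, TAP2 and TAPBP sit at different distances, whereas the Y boxes of HLA-B, HLA-C, HLA-F and HLA-G line up near -55.

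HLA-B and HLA-C encode classical heavy chains, which present peptides to CD8 T cells and inhibit natural killer cells. HLA-B (209140_x_at) had untreated log2 levels of 10.11 in SKOV-3, 11.00 in DOV-13, 12.47 in CAOV-3 and 9.60 in OVCAR-3, and with pI:pC 10.39, 11.14, 13.17 and 9.97. The line differences were thus far larger than the treatment differences, and the untreated and treated groups overlapped. The mean change was 0.37 ± 0.24 (SD, n = 4 lines; limma adjusted p = 0.996), with the highest value in CAOV-3 (0.70) and the lowest in DOV-13 (0.14). In the other 2 HLA-B probe sets CAOV-3 was higher by 0.94 (208729_x_at) and 0.92 (211911_x_at), and OVCAR-3 by 0.62 and 0.52. SKOV-3 differed between them, with -0.05 and 0.01 in these 2 against 0.28 in the brightest.

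HLA-C, by its brightest probe set, had the smallest SD of change over the lines among the 9 members (0.16), though its other 3 probe sets had SDs of 0.26 to 0.35. In 208812_x_at the untreated levels were 10.84 in SKOV-3, 11.21 in DOV-13, 12.40 in CAOV-3 and 9.93 in OVCAR-3, and the treated levels 11.14, 11.39, 12.84 and 10.46. Every line was higher with pI:pC, by 0.17 to 0.52, for a mean of 0.36 ± 0.16 (SD, n = 4 lines; limma adjusted p = 0.996). Here OVCAR-3 (0.52) lay above CAOV-3 (0.45). The other 3 HLA-C probe sets put CAOV-3 first, at 0.98 in 211799_x_at, 0.63 in 214459_x_at and 0.61 in 216526_x_at.

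HLA-E, HLA-F and HLA-G encode nonclassical heavy chains. HLA-E presents leader peptides of other class I chains to the NKG2A receptor of natural killer cells, and in 2 of its 3 probe sets SKOV-3, not CAOV-3, was the highest untreated line. In 200905_x_at untreated SKOV-3 was highest at 10.59, next to CAOV-3 at 10.48, with DOV-13 at 9.70 and OVCAR-3 at 9.42. With pI:pC CAOV-3 went to 11.36 and SKOV-3 stood at 10.55, so that CAOV-3 became the highest line. DOV-13 reached 9.84 and OVCAR-3 9.81. The mean change was 0.34 ± 0.40 (SD, n = 4 lines), and 0.163 without CAOV-3. The probe sets 200904_at and 217456_x_at gave 0.84 and 0.76 in CAOV-3, and 0.13 and 0.39 in OVCAR-3. Untreated 217456_x_at had the order of lines seen in HLA-F and HLA-G, with CAOV-3 at 9.61, SKOV-3 at 9.56, DOV-13 at 9.15 and OVCAR-3 at 8.59.

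HLA-F, a heavy chain found at the cell surface mainly on activated cells, had untreated levels in 221875_x_at of 9.62 in SKOV-3, 9.24 in DOV-13, 10.93 in CAOV-3 and 8.10 in OVCAR-3. Treated levels were 9.86, 9.56, 12.01 and 8.43. The CAOV-3 difference of 1.08 stood apart from the other lines, which lay between 0.24 and 0.34. The mean was 0.50 ± 0.39 (SD, n = 4 lines), and 0.302 without CAOV-3. The 2 other HLA-F probe sets gave CAOV-3 differences of 0.98 (204806_x_at) and 0.83 (221978_at). The second of these was dimmer, with untreated levels from 5.13 to 6.48, and it was lower with pI:pC in OVCAR-3 (-0.34) and DOV-13 (-0.15).

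HLA-G is best known from the placenta, where it inhibits immune cells. Its probe set 211528_x_at read 10.42 in untreated SKOV-3, 10.29 in DOV-13, 11.47 in CAOV-3 and 9.03 in OVCAR-3, and 10.54, 10.42, 12.28 and 9.33 with pI:pC. The difference in CAOV-3 (0.81) exceeded those of OVCAR-3 (0.30), DOV-13 (0.13) and SKOV-3 (0.12), for a mean of 0.34 ± 0.32 (SD, n = 4 lines) that was 0.185 without CAOV-3. The other 3 HLA-G probe sets gave 0.68 to 0.81 in CAOV-3. By their brightest probe sets HLA-G and HLA-F had the same order of lines, both in untreated level and in size of difference.

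How far these HLA values belong to separate genes is limited by the array. The HLA heavy chain genes are close copies of each other and vary between people, and 15 of the 17 HLA probe sets, with every one for HLA-B, HLA-C and HLA-G, carry the suffix x_at, Affymetrix's mark for probes that can match several sequences. A level of HLA-G or HLA-F can therefore hold signal from another heavy chain, and how well the probes match the alleles of each line was not tested. Only 200904_at (HLA-E) and 221978_at (HLA-F) lack the mark, and in CAOV-3 they were higher by 0.84 and 0.83. The HLA-E probe set 200904_at went from 8.01 to 8.85 in CAOV-3, from 8.38 to 8.54 in SKOV-3, from 7.70 to 7.89 in DOV-13 and from 7.30 to 7.42 in OVCAR-3. For HLA-F 221978_at these pairs were 6.48 and 7.31, 5.89 and 6.02, 5.52 and 5.37, and 5.13 and 4.80, so that CAOV-3 was the highest line in it before and after pI:pC. Over the 10 member probe sets without the mark the differences ran from 0.14 to 1.63 in CAOV-3 (median 0.73) and from -0.36 to 0.87 in OVCAR-3 (median 0.23). Over the 15 with the mark they ran from 0.45 to 1.08 (median 0.81) and from 0.20 to 0.62 (median 0.39).

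**Figure D2:**
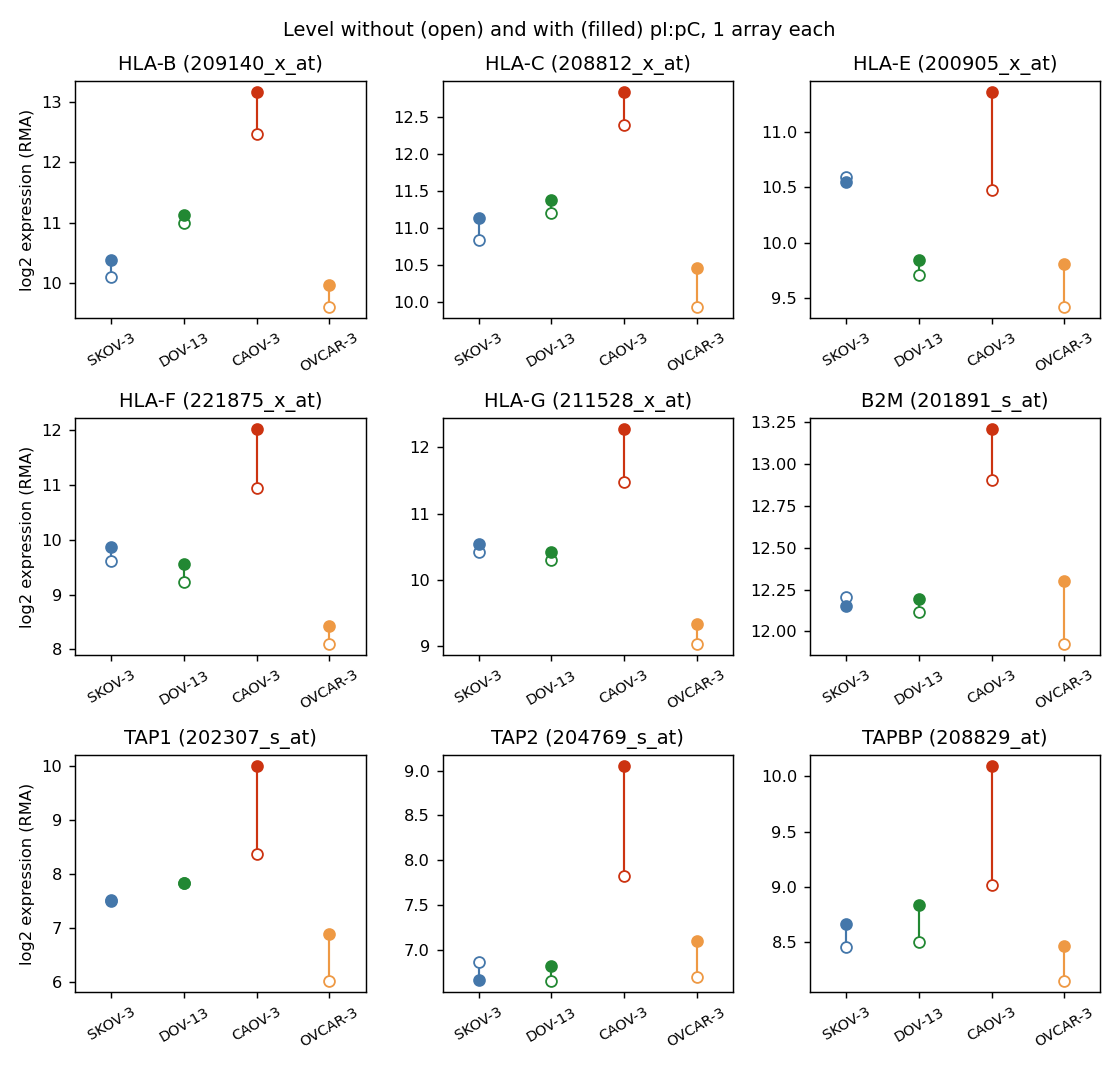
Log2 level of each member, by its brightest probe set, on the untreated array (open) and the pI:pC array (filled) of each line, joined by a line; each point is 1 array and each panel has its own scale. CAOV-3 (red) is the highest line with pI:pC in all 9 panels, and in TAP1 the untreated and treated points of SKOV-3, and likewise those of DOV-13, nearly coincide.

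B2M, the light chain shared by all class I molecules, showed the smallest mean change of the 9 by brightest probe set; with the mean of a gene's probe sets TAP2 (0.205) lay just under B2M (0.210). In 201891_s_at untreated levels were 12.20 in SKOV-3, 12.12 in DOV-13, 12.91 in CAOV-3 and 11.92 in OVCAR-3, and treated levels 12.15, 12.19, 13.21 and 12.30. B2M had its largest difference in OVCAR-3 (0.38), ahead of CAOV-3 (0.31), with DOV-13 at 0.08 and SKOV-3 at -0.05. The second probe set, 216231_s_at, kept that order with 0.50 in OVCAR-3 and 0.36 in CAOV-3. The mean in 201891_s_at was 0.18 ± 0.20 (SD, n = 4 lines; limma adjusted p = 0.996), and 0.111 without OVCAR-3.

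The transporter genes had the largest differences of the set, and both in CAOV-3. TAP1, measured by 202307_s_at alone, read 7.52 in untreated SKOV-3, 7.85 in DOV-13, 8.37 in CAOV-3 and 6.02 in OVCAR-3. With pI:pC it read 7.50, 7.83, 10.00 and 6.89. CAOV-3 was thus higher by 1.63 and OVCAR-3 by 0.87, whereas SKOV-3 and DOV-13 differed by -0.03 and -0.02. The mean of 0.62 ± 0.80 (SD, n = 4 lines; limma adjusted p = 0.996) was 0.276 without CAOV-3. The treated OVCAR-3 level of 6.89 lay below every untreated level of the other lines.

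TAP2, the partner of TAP1 in the transporter, gave a similar picture in 204769_s_at. Untreated levels were 6.86 in SKOV-3, 6.65 in DOV-13, 7.82 in CAOV-3 and 6.70 in OVCAR-3, and treated levels 6.66, 6.82, 9.05 and 7.10. CAOV-3 was higher by 1.23 (2.35-fold) and OVCAR-3 by 0.40, while SKOV-3 differed by -0.21. The mean was 0.40 ± 0.61 (SD, n = 4 lines), 0.121 without CAOV-3 and 0.600 without SKOV-3. The other TAP2 probe sets did not show it: 204770_at had 0.32 in CAOV-3 and 0.35 in SKOV-3, and the dim 208428_at stayed between -0.16 and 0.14 in all lines.

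Tapasin (TAPBP) was higher in every line in 208829_at. It read 8.45 in untreated SKOV-3, 8.50 in DOV-13, 9.01 in CAOV-3 and 8.14 in OVCAR-3, and 8.66, 8.83, 10.09 and 8.46 with pI:pC. The difference was 1.08 in CAOV-3 and between 0.21 and 0.33 in the other lines, for a mean of 0.49 ± 0.40 (SD, n = 4 lines; limma adjusted p = 0.996) that was 0.289 without CAOV-3. The dim second probe set 210294_at, under the median of all probe sets in every untreated line, gave 0.64 in CAOV-3 and -0.36 in OVCAR-3.

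**Figure D3:**
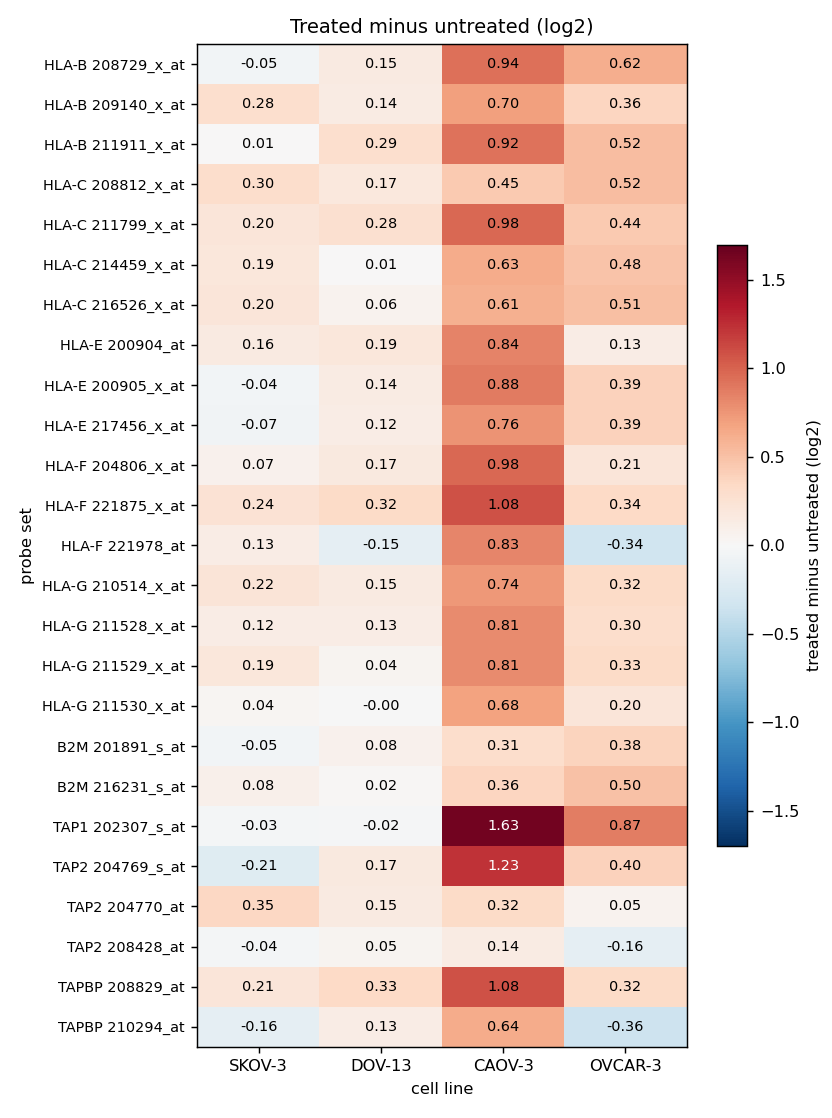
Treated minus untreated log2 value of all 25 member probe sets (rows) in each line (columns), 1 array pair per cell, red for higher and blue for lower with pI:pC. All 25 are positive in CAOV-3, and TAP1 (1.63) and TAP2 204769_s_at (1.23) have the largest values.

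Counted over probe sets, differences of 1 or more on the log2 scale occurred in 4 of 25 in CAOV-3, namely TAP1, TAP2 (204769_s_at), HLA-F (221875_x_at) and TAPBP (208829_at), against 0.774% of all probe sets in that line. No member probe set reached 1 in SKOV-3, DOV-13 or OVCAR-3, where 0.0045%, 0.0225% and 0.162% of all probe sets did. At 0.5 or more the count was 20 of 25 in CAOV-3 (2.63% of all probe sets) and 5 of 25 in OVCAR-3 (0.765%), and 0 in SKOV-3 (0.324%) and DOV-13 (0.491%). The 5 in OVCAR-3 were 2 probe sets of HLA-B, 2 of HLA-C and TAP1. In all 4 lines 15 of the 25 probe sets were higher with pI:pC, against 6.74% of all probe sets. Probe sets of 1 gene, and those of the HLA genes among each other, share transcripts or probes and are not independent. These counts were made on a set chosen with earlier results of these arrays known.

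Class I levels differed between the lines. By limma's F-test of the cell line terms, 24 of the 25 member probe sets differed between lines (adjusted p under 0.05), but so did 65.5% of all probe sets, and the exception was TAP2 208428_at (adjusted p = 0.0771). The count was 23 without SKOV-3 (13759 of all 22215 probe sets), 22 without DOV-13 (13028), 20 without CAOV-3 (12910) and 24 without OVCAR-3 (11956). By eBayes with trend and robust it was 25 of 25, TAP2 208428_at included, beside 14674 of all 22215. The test averages the untreated and the pI:pC array of a line, so that a line difference includes any unequal response. Its error, used also for the pairs of lines below, comes from that unequal response, moderated by limma over all probe sets. It does not measure the spread between cultures of the same line. Untreated CAOV-3 was the highest and untreated OVCAR-3 the lowest line in all 14 probe sets of HLA-B, HLA-C, HLA-F and HLA-G. Over all 25, CAOV-3 was highest in 21 and OVCAR-3 lowest in 22. The share of all probe sets with such an order was not computed. The distance from the lowest to the highest untreated line ran from 0.33 (TAP2 208428_at) to 3.56 (HLA-B 211911_x_at).

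Pairs of lines put this order on the fit. CAOV-3 was above OVCAR-3 in 22 of 25 probe sets (47.4% of all probe sets differed in either direction), above SKOV-3 in 20 of 25 (46.8%) and above DOV-13 in 23 of 25, with both remaining TAP2 probe sets lower in CAOV-3 than in DOV-13 (46.4%). OVCAR-3 was below SKOV-3 in 18 of 25 (47.1%) and below DOV-13 in 15 of 25 (46%). SKOV-3 and DOV-13 were the least separated, with 5 of 25 passing, 2 higher and 3 lower in SKOV-3 (34.8%). The 2 higher in SKOV-3 were both HLA-E, and the 3 lower were HLA-B 209140_x_at, HLA-C 216526_x_at and TAP2 204770_at.

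Neighbours in the order of lines could not always be told apart. For HLA-B 209140_x_at every neighbour differed, CAOV-3 over DOV-13, DOV-13 over SKOV-3 (limma adjusted p = 0.00209) and SKOV-3 over OVCAR-3 (limma adjusted p = 0.0224). For HLA-C 208812_x_at DOV-13 and SKOV-3 did not pass (difference SKOV-3 minus DOV-13 -0.31, SE 0.107, limma adjusted p = 0.0575). SKOV-3 and DOV-13 also did not pass for HLA-F 221875_x_at (limma adjusted p = 0.235), HLA-G 211528_x_at (0.668) and TAP1 (0.581), while CAOV-3 above and OVCAR-3 below them did. For HLA-E 200905_x_at neither CAOV-3 and SKOV-3 (limma adjusted p = 0.191) nor DOV-13 and OVCAR-3 (0.557) passed. For B2M 201891_s_at, TAP2 204769_s_at and TAPBP 208829_at CAOV-3 lay above each of the other 3 lines, and no pair among those 3 passed. The largest line difference of a brightest probe set was that of HLA-F, CAOV-3 minus OVCAR-3, at 3.21 (SE 0.193, limma adjusted p = 6.87e-06).

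**Figure D4:**
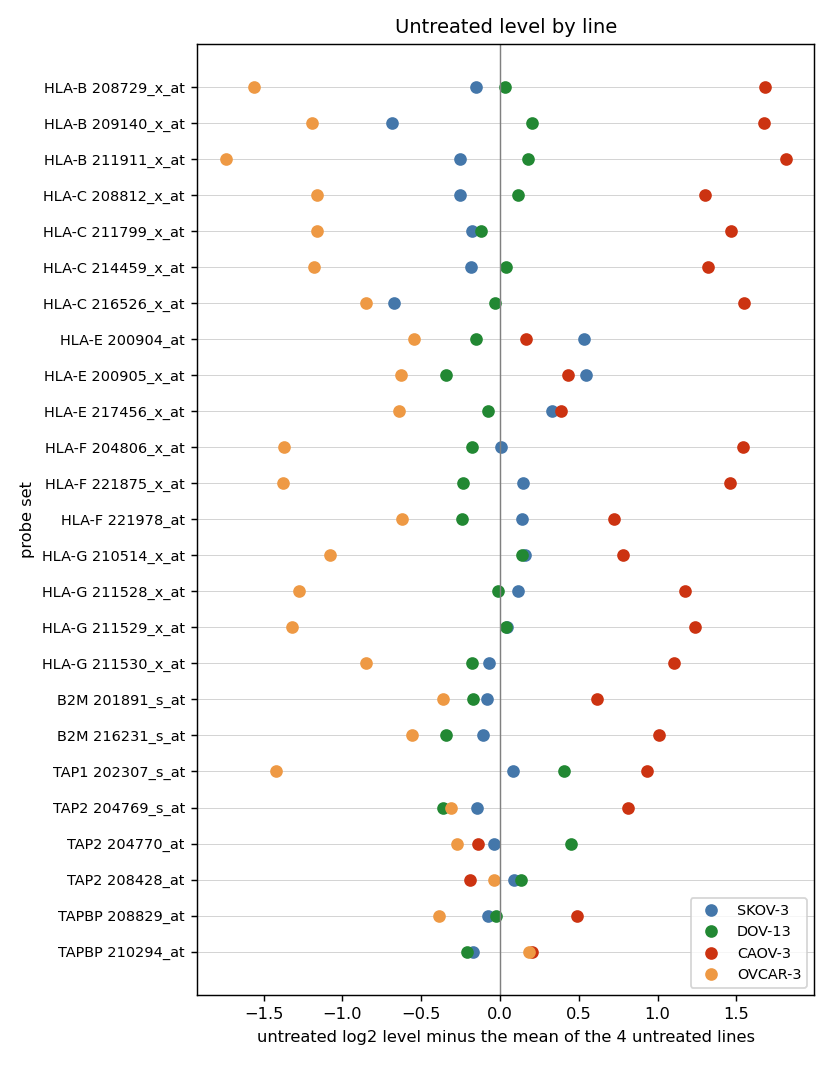
Untreated log2 level of every member probe set in each line, minus the mean of the 4 untreated lines of that probe set; each point is 1 array. CAOV-3 lies to the right and OVCAR-3 to the left in all HLA-B, HLA-C, HLA-F and HLA-G rows, while SKOV-3 leads in 2 of the 3 HLA-E rows.

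The differences after pI:pC ran along this order at its upper end and not throughout. The line with the highest untreated levels, CAOV-3, also had the largest difference in 21 of 25 probe sets, but OVCAR-3, with the lowest levels, came next in median. The spread over lines was wider with pI:pC than without in 24 of 25 probe sets, HLA-C 208812_x_at being the exception (2.39 against 2.46). Where CAOV-3 was both the highest untreated line and the line with the largest difference, a wider spread follows from that and is no separate result. In 18 of 25 probe sets treated OVCAR-3 stayed below the lowest untreated level of the other lines. In 0 of 25 did the lowest treated value exceed the highest untreated one. These counts describe the members only, because the share of all probe sets was not computed for them.

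Other genes of the pathway were taken from a list that was chosen with earlier results of these data known. Of 12 listed genes 10 were measured and 9 had a positive mean change, against 6427 of all 11963 genes, and the medians were 0.84 in CAOV-3, 0.23 in OVCAR-3, 0.12 in SKOV-3 and 0.26 in DOV-13, beside the 0.88, 0.38, 0.12 and 0.14 of the members. None passed limma's test over all probe sets, of which 0% passed. The immunoproteasome subunits, which change the cleavage of proteins towards class I ligands, led the list. PSMB9 differed by 1.21 in CAOV-3, 0.61 in OVCAR-3, 0.63 in SKOV-3 and 0.22 in DOV-13, with a mean of 0.67 ± 0.40 (SD, n = 4 lines). PSMB10 had 0.52 ± 0.53 and PSMB8 0.39 ± 0.31, and ERAP2, which trims peptides in the endoplasmic reticulum, 0.37 ± 0.40. In the RefSeq gene order of GRCh38.p14 TAP2, PSMB8, TAP1 and PSMB9 are neighbours, and their CAOV-3 differences were 1.23, 0.75, 1.63 and 1.21. The chaperone gene CANX, whose product binds new heavy chains, had -0.02 ± 0.04.

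Among transcription factors known to act on class I promoters, 13 of 16 listed were measured. Of these 8 had a positive mean change, a share near that of all genes (6427 of 11963), and the medians were 0.19 in CAOV-3, 0.02 in OVCAR-3, -0.03 in SKOV-3 and 0.16 in DOV-13. IRF9, a transcription factor of the interferon response, differed by 2.11 in OVCAR-3 and 0.81 in CAOV-3, while SKOV-3 had -0.03 and DOV-13 had -0.21. Its mean was 0.67 ± 1.06 (SD, n = 4 lines). NFKB1 had 0.21 ± 0.18, IRF1 0.18 ± 0.07 and IRF2 0.16 ± 0.21. The class I-like genes, relatives of the heavy chains with other functions, had 7 positive means among 9 measured of 10 listed, beside the same 6427 of 11963, and medians between -0.008 and 0.08 by line. The largest mean in size was that of HFE, an iron regulator, at -0.13 ± 0.17, followed by AZGP1 at 0.11 ± 0.21, the antibody receptor gene FCGRT at 0.06 ± 0.05 and ULBP2, a ligand of the receptor NKG2D, at 0.06 ± 0.02. AZGP1 was dim, with untreated levels from 3.59 in DOV-13 to 3.96 in OVCAR-3.

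In the interferon response readout OVCAR-3, not CAOV-3, had the larger median difference. Its 5 genes had a median difference of 3.32 in OVCAR-3 and 2.31 in CAOV-3, while SKOV-3 had 0.57 and DOV-13 had 0.20. IFIT1, which binds viral RNA, went from 5.19 to a value higher by 4.22 in OVCAR-3, and from 9.27 to one higher by 2.52 in CAOV-3. MX1, an antiviral GTPase, was higher by 3.92 in OVCAR-3 and 1.99 in CAOV-3. The ubiquitin-like modifier gene ISG15 was higher by 3.20 in OVCAR-3 and 2.31 in CAOV-3, and IFI44 by 3.32 and 1.82. OAS1, which makes an activator of RNase L, went the other way, with 2.14 in OVCAR-3 and 2.74 in CAOV-3. Against this, TAP1 was higher by 0.87 in OVCAR-3 and 1.63 in CAOV-3, and whether the lines differ in the ratio of these responses was not tested. Untreated CAOV-3 already stood above the other untreated lines in these genes, with IFIT1 at 9.27 against 5.19 to 6.02 and MX1 at 9.31 against 5.10 to 6.33. The part of that untreated state in the class I levels of CAOV-3 was not tested.

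**Figure D5:**
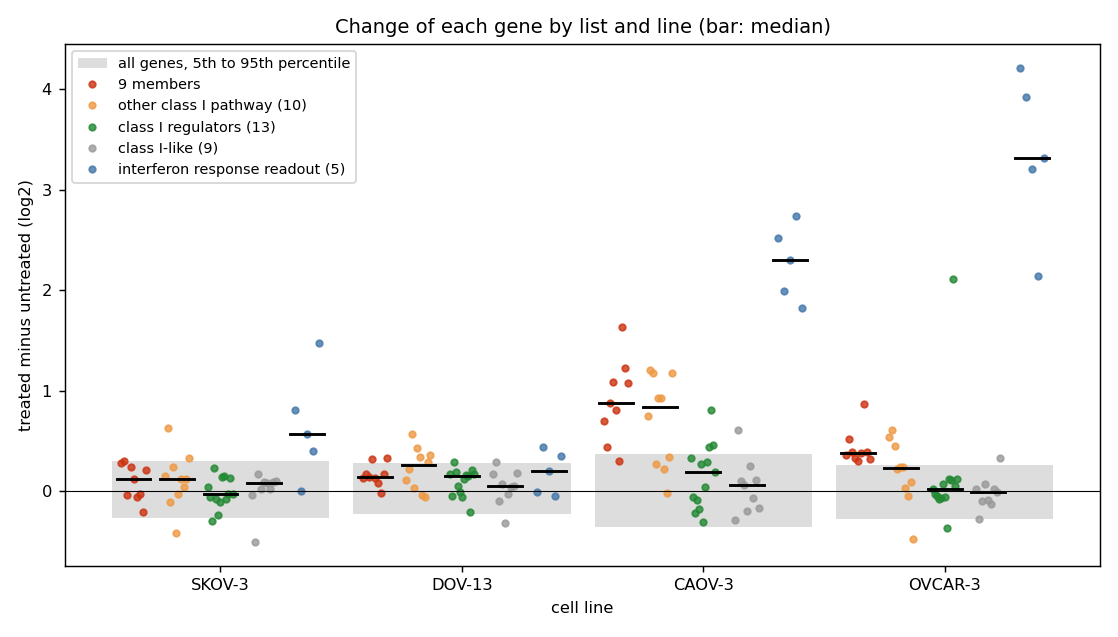
Treated minus untreated log2 value of every gene in each list, by its brightest probe set, in each line (points, 1 array pair each), with the list median as a black bar and the range from the 5th to the 95th percentile of all 11963 genes in grey. The 9 members lie above the grey range in CAOV-3 except B2M (0.31) and in OVCAR-3, and 4 of the 5 interferon readout genes have their largest difference in OVCAR-3.

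The genes whose differences over the 4 lines were most like the members' median, by Euclidean distance in log2 units over those 4 values, were TNFAIP2 (0.132), the death receptor gene FAS (0.184), the butyrophilin gene BTN3A2 (0.194), PSMB8 (0.218) and LY6E (0.218). TNFAIP2 differed by 0.96 in CAOV-3, 0.30 in OVCAR-3, 0.11 in SKOV-3 and 0.06 in DOV-13. Nearest to TAP1 were SP110 (0.220), the ISG15 protease gene USP18 (0.260), the aminopeptidase gene LAP3 (0.277), PLSCR1 (0.472) and the RNA sensor gene RIGI (0.488). SP110 differed by 1.65 in CAOV-3, 0.91 in OVCAR-3, -0.24 in SKOV-3 and -0.03 in DOV-13. These distances rest on 4 array pairs and rank genes only.

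Arrays lay closest to the other array of the same line, with correlations of 0.992 to 0.997 between the 2 arrays of a line and of 0.897 to 0.947 between lines, and array medians of 6.19 to 6.30. Of 12 epithelial and ovarian marker genes, those at or above the median gene of the untreated array numbered 6 in SKOV-3, 5 in DOV-13, 10 in CAOV-3 and 11 in OVCAR-3. The keratins KRT8 and KRT18 were between 10.89 and 12.59 in every untreated line, but E-cadherin (CDH1) was at 3.74 in SKOV-3 and 3.58 in DOV-13. Of 9 leukocyte markers CD14 alone reached the median gene, in untreated CAOV-3 (7.06), and PTPRC, which encodes the pan-leukocyte surface phosphatase, lay between 4.11 and 4.29 on the untreated arrays. None of 3 endothelial markers reached it, and of 4 fibroblast markers 2 did in SKOV-3 and 1 in each other line. In RNA of whole cultures a larger share of cells with a high level and more RNA per cell cannot be told apart. Nothing in the labels says that an array held a separate culture or a pool, so the spread between the 4 lines is the only error known here.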

How the data were processed

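Total RNA was extracted with Trizol, made into biotinylated cRNA and hybridised to Affymetrix arrays, per the labels' protocols. The deposited table holds log2 values, which the submitters' processing notes attribute to RMA. RMA by its usual definition corrects background, equalises the arrays and summarises each probe set, and it compresses the differences of dim probe sets. Its version is not given in the sources used here. Array-to-array precision is limited by the number of arrays.

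Of the 22215 probe sets that are no controls, 19064 carry 1 gene symbol in the platform annotation supplied with the data, 1043 several and 2108 none. The brightest probe set of a gene is the one with the highest mean over the 8 arrays. limma (3.58.1, run in R 4.3.3 with two-sided tests, Benjamini-Hochberg over all probe sets, threshold 0.05) was fitted with treatment and cell line. The fit had 3 residual and 4.59 prior degrees of freedom. Its test on simulated data gave each changed probe set the same change in every line and used a common spread. That simulation does not show how the fit behaves where the lines differ in their change. The cell line pairs the arrays by the labels, and both arrays of a line deviated together from their group means (correlations of 0.936 to 0.965). Line differences came from the same fit. All 9 members were named with every probe set, and from each list the 4 genes with the largest mean change in size (CANX, OAS1 and the marker genes shown singly were picked after their values were seen). The 5 genes nearest to the members' median and to TAP1 were named by distance. Members and lists were chosen with earlier results of these data known. Listed genes without a probe set of 1 symbol were not analysed here. The alternatives tried were a fit lacking the cell line, a level filter, other probe set choices, quantile normalization again, median centring, eBayes with trend and robust, a smaller difference and each line left out.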

Additional observations from a re-analysis of the deposited data

Results flagged for a closer look

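In 5 of 75 checks of 4 values each (untreated levels, treated levels and differences of the 25 member probe sets), 1 line stood far from the other 3 by Dixon's rule; chance alone flags about 1 in 20 such checks, and in all 5 the line was CAOV-3. The difference of HLA-E 200904_at was 0.84 in CAOV-3 and at most 0.19 elsewhere. HLA-F had 0.98 in 204806_x_at (next 0.21) and 1.08 in 221875_x_at (next 0.34). TAPBP 208829_at had 1.08 (next 0.33). The treated level of B2M 201891_s_at was 13.21 in CAOV-3 and 12.30 in the next line, OVCAR-3.

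In 2 probe sets CAOV-3 and OVCAR-3 moved in opposite directions by more than 0.25 each. HLA-F 221978_at had 0.83 in CAOV-3 against -0.34 in OVCAR-3, and TAPBP 210294_at had 0.64 against -0.36. With 1 array per condition in a line these differences were not tested, and both genes have a brighter probe set that was higher in both lines.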

How the results depend on the processing

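Of 78 alternatives computed for the main counts and medians, 73 were kept by a wide rule. A count had to stay within 1.5 times the main one. A median had to keep its sign and move by less than 1 SD, taken over the medians of the 4 lines. Counts of 0 that stayed at 0 are among the 73, and so is the SKOV-3 median that went from 0.12 to 0.035. For these the rule says little. All 72 alternatives for the mean changes of single members kept their sign. Without the cell line block 0 member probe sets passed limma's adjusted test, as with it. With 1 probe set per gene, 8340 of 11963 genes and 9 of 9 members differed between lines; fewer features were tested there. Members higher in every line numbered 5 of 9, against 823 of all 11963 genes. With a line left out they numbered 5 to 8, 8 being the count without SKOV-3. The share of all genes over the remaining lines was not computed. A difference of at least 0.5 in place of 1 gave 20 member probe sets in CAOV-3 (in place of 4) and 5 in OVCAR-3 (in place of 0).

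With probe sets lacking the x_at mark only, an alternative chosen after seeing the data, the median of the 6 members left came to 0.96 for CAOV-3, 0.35 for OVCAR-3, 0.05 for SKOV-3 and 0.13 for DOV-13. Probe sets near the lowest signals, such as TAP2 208428_at, can show little change on this scale, and background signal was not analysed here.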
